A study of Mus musculus with 6 samples.

Results

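The translation initiation factor genes were taken as all genes whose symbol begins with Eif1 to Eif6, leaving out Eif2s3x and Eif2s3y, the X- and Y-linked genes of the gamma subunit of eIF2. The rule used names alone, although it was set with earlier results of these data known, and gave 53 of 19401 genes. Of these, 52 were among the 15537 genes with enough reads to be tested. The member not tested was Eif4e1b, a germ cell form of the cap-binding protein eIF4E, with 0.02 FPKM in EFV replicate 1, 0.05 FPKM in EFV replicate 3 and 0 in the other 4 libraries.

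RNA came from the retina plus the retinal pigment epithelium (RPE) of male 5XFAD mice, a hemizygous transgenic model of amyloid formation on the B6SJL background that carries mutant human amyloid precursor protein and presenilin 1, both driven by the neuronal Thy1 promoter. EFV-treated mice received efavirenz (EFV), an anti-HIV drug studied here for its activation of the cholesterol hydroxylase CYP46A1, at 0.08 mg per kg body weight in drinking water from 3 to 9 months of age. Control mice received the aqueous Tween 80 vehicle, and all animals were 9 months old at collection. Each group had 3 libraries, each made from 5 to 6 mice that gave 1 eye apiece, so the spread between libraries was that between pools. All 6 libraries carried the transgenes and no wild-type library was compared. The dose is that of the sample labels, and the methods of the study state a different one.

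Initiation begins when eIF2, carrying GTP and the initiator tRNA, joins the small ribosomal subunit together with eIF1, eIF1A, eIF3 and eIF5. The eIF4F complex binds the mRNA cap and unwinds the leader, the ribosome scans to the start codon, and eIF5B joins the large subunit. Supply is controlled at 2 points, by kinases that phosphorylate the alpha subunit of eIF2 and so block its recycling by eIF2B, and by the 4E-binding proteins, which sequester eIF4E. Photoreceptors renew a part of their outer segments each day and therefore make protein at a high rate.

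With all 6 libraries in the fit, no initiation factor gene passed a test between EFV-treated and control 5XFAD mice that allowed for the spread between pools. Leaving out 1 library brought 0 to 2 members past the limits of the study, the 2 being Eif4ebp2 and Eif1ax without EFV replicate 2. By edgeR's quasi-likelihood test, 0 of 52 members had a Benjamini-Hochberg adjusted p of 0.05 or less, against 0% of all 15537 genes, and the smallest adjusted p among the members was 0.999. At those limits, an unadjusted p of 0.05 or less with the higher group at least 7% above the lower, 0 of 52 members were called, against 3.01% of all genes tested, or 467 genes. No member reached an unadjusted p of 0.05 in this fit, whereas 472 of all genes did. DESeq2 and limma on log2 FPKM also placed 0 members at an unadjusted p of 0.05 or less. A Poisson model, in which counting error is the sole source of spread, placed 9 of 52 there. By that model 3 of 52 members passed the limits of the study, against 2305 of all 15537 genes tested.

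The members divided evenly, with 26 lower and 26 higher in the EFV group. Total count scaling moved this to 17 lower, and limma on log2 FPKM to 18 lower. Their median log2 fold change was -0.0012, beside 0.0012 over all genes tested. The median size of the change, regardless of sign, was 0.030 on the log2 scale for the members and 0.057 for all genes. Single values ran from -0.11 for Eif4ebp2 to 0.16 for Eif3j2. The 95% interval lay wholly inside a 20% rise or the matching fall (0.26 on the log2 scale either way) for 43 of 52 members, or 82.7%, against 54.2% of all genes. The members were also more abundant, with a median level of 21.6 FPKM against 7.66 FPKM for all genes tested, and 45 of 52 were above that level. The intervals of the other 9 members were wider than this limit on at least one side. These were Eif1ax, Eif2ak1, Eif2ak2, Eif3j1, Eif3j2, Eif4ebp1, Eif4ebp2, Eif4ebp3 and Eif5a2.

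**Figure D1:**
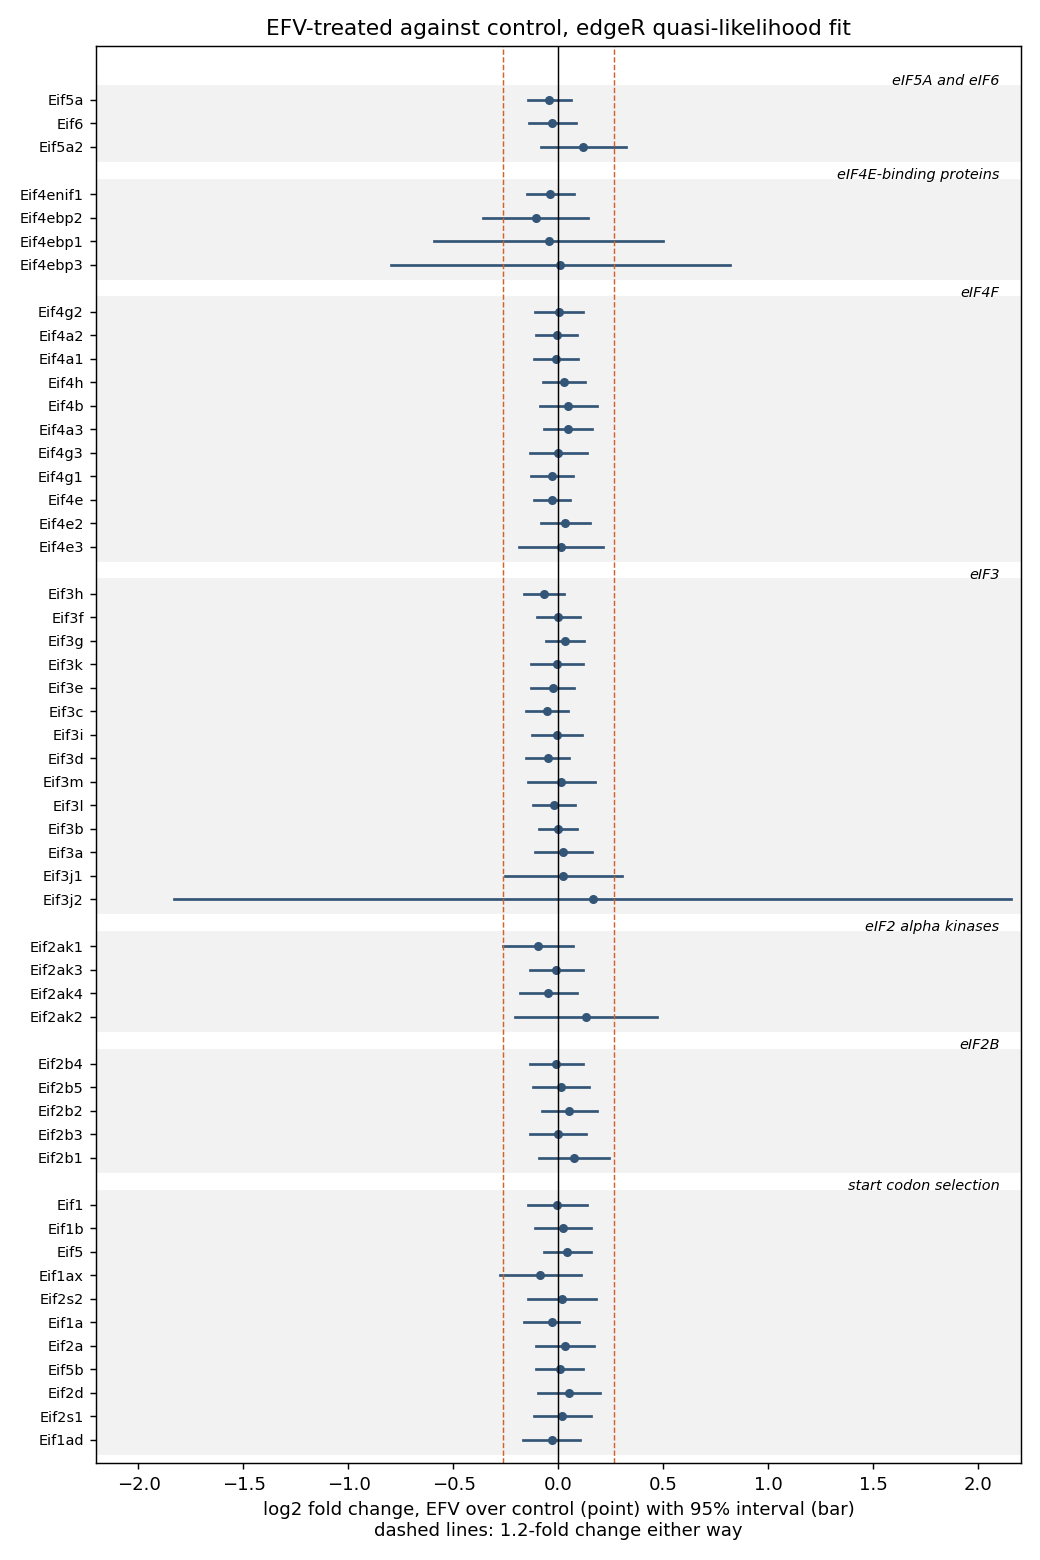
Log2 fold change of each of the 52 tested initiation factor genes, EFV over control (horizontal axis, points), with the 95% interval from the edgeR fit (bars), grouped by role. Every interval crosses 0, and 43 of 52 lie between the dashed lines at 0.26 on the log2 scale either way.

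**Figure D2:**
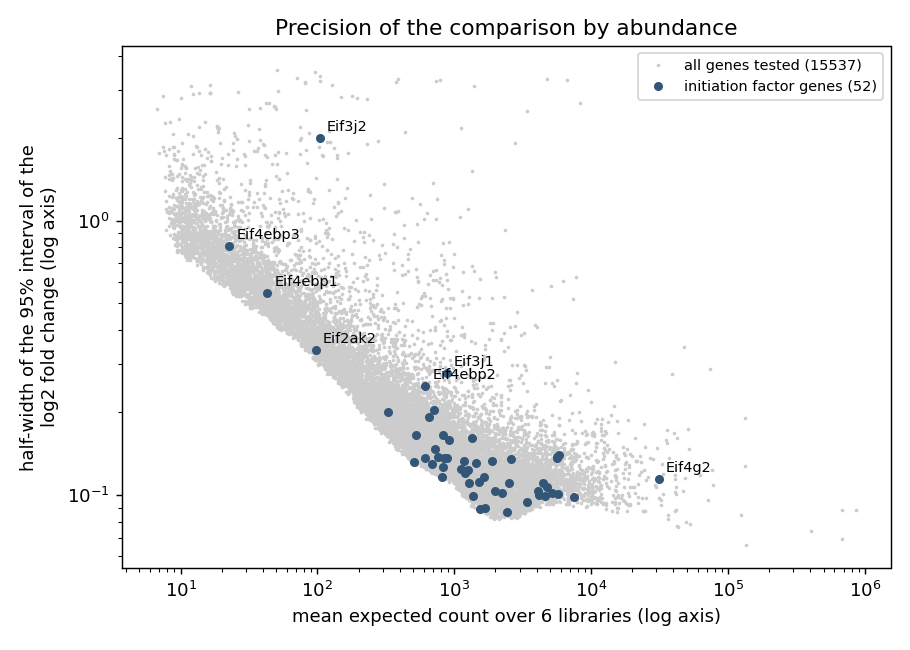
Half-width of the 95% interval of the log2 fold change against the mean expected count over the 6 libraries (both axes logarithmic), for the 52 members (blue) and all 15537 genes tested (grey). Eif4ebp3, Eif4ebp1 and Eif2ak2 lie with other genes of low count, whereas Eif3j2 lies above most genes of its own abundance.

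Total counts ran from 23455167 to 24590278 per library, and the members took 0.549% to 0.569% of them. Retinal identity was plain from 6 rod markers, which summed to 22690 to 24370 FPKM in every library. A pair of control libraries stood apart. Control replicate 3 had 2176 FPKM over 9 lens markers, against 19.7 to 108 in the others, and all 8 lens markers tested passed the limits of the study, lower in EFV. Control replicate 2 had 25.2 FPKM over 10 RPE markers, against 47.0 to 61.7 in the others, and 2 of 10 passed, higher in EFV. These counts stand against 3.01% of all genes. Among the markers of other cell types, 1 of 3 fibroblast markers tested (Col1a2) and 1 of 2 oligodendrocyte markers tested (Mbp) passed, both higher in EFV. The part of these differences in the members' values was not tested beyond the fits without each library. No marker of these lists was at 0 in all libraries. Without control replicate 3 no member passed the limits and the median log2 fold change was -0.0045, and without control replicate 2 the count was again 0 with a median of -0.015. In pooled tissue, fewer cells of a type and less RNA per cell cannot be told apart.

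Between libraries the members were steady. The median coefficient of variation over the 6 libraries was 4.11%, against 7.06% for all genes tested, and 46 members had one under 10%. The latter count was not made for all genes. The members were also more abundant (median 21.6 against 7.66 FPKM), and the coefficient of variation of genes of like abundance was not compared. Ranked on TMM-scaled counts (CPM), EFV replicate 3 was lowest for 15 of the 52 members tested and EFV replicate 2 highest for 12. On FPKM, control replicate 2 was the lowest library more often than EFV replicate 3. In 1 of 52 members, or 1.92%, the FPKM of the groups did not overlap, against 7.67% of all genes tested. This was Eif4e2, described with the cap-binding proteins. On TMM-scaled counts (CPM), the groups did not overlap in 2 of 52, or 3.85%, against 8.14% of all genes tested, and these were Eif4e2 and Eif3h.

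**Figure D3:**
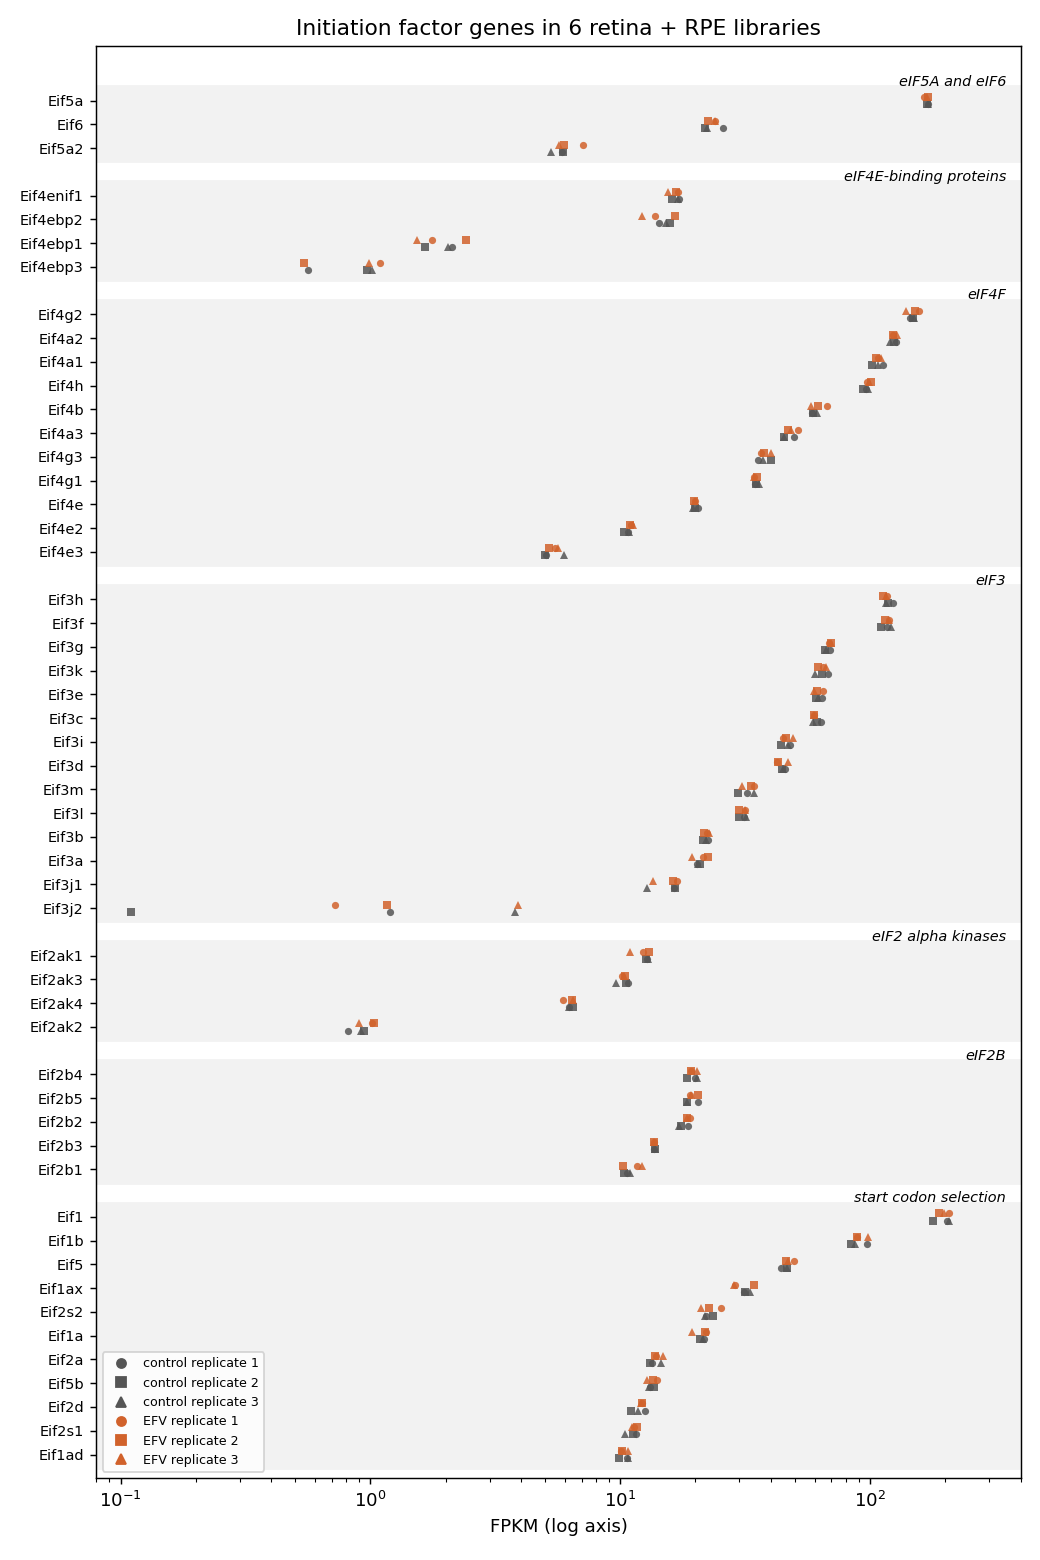
FPKM of the 52 tested members in each library (logarithmic horizontal axis), with control libraries in grey, EFV libraries in orange and the replicate number given by the marker shape. Mean levels of Eif4ebp3 and Eif1, the scarcest and the most abundant, are 0.86 and 197 FPKM, and the libraries spread most in Eif3j2, Eif4ebp3 and Eif4ebp1, with coefficients of variation of 89.5%, 28.3% and 17.0%.

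The genes for start codon selection held the most abundant member. Eif1, whose protein keeps the scanning ribosome from starting at poor codons, had 202, 178 and 207 FPKM in control replicates 1 to 3 and 207, 189 and 197 FPKM in the EFV libraries. Control replicate 2 was lowest and the other libraries of both groups were mixed. The log2 fold change was -0.0050 with a 95% interval from -0.14 to 0.14. Eif1b, a second gene for the same factor, had 96.8, 84.1 and 87.3 FPKM in control and 88.8, 88.5 and 98.2 FPKM in EFV, so the groups overlapped. Eif5, which makes eIF2 hydrolyse its GTP when the start codon is found, had 44.1, 46.6 and 46.4 FPKM in control and 49.7, 46.1 and 47.0 FPKM in EFV. Its log2 fold change was 0.042 with an interval from -0.069 to 0.15.

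Eif1ax and Eif1a both encode eIF1A, which holds the ribosome in its scanning form. Eif1ax had 31.4, 31.6 and 33.1 FPKM in control and 28.8, 34.4 and 28.4 FPKM in EFV. The EFV libraries lay on both sides of the control range, and the log2 fold change was -0.086 with an interval from -0.28 to 0.11. Without EFV replicate 2, the highest library, it was -0.19 with an unadjusted edgeR p of 0.0229 and an adjusted p of 0.998. Eif1a had 19.34 to 21.97 FPKM over all 6 libraries. With the counts of both genes summed, the log2 fold change was -0.050, with an interval from -0.18 to 0.080. The other 6 genes of this role, among them Eif2s1 and Eif2s2 for the alpha and beta subunits of eIF2 and Eif5b for subunit joining, lay between 10.4 and 22.7 FPKM on average. Over the 11 genes, 4 were lower and 7 higher, and the smallest unadjusted p by edgeR was 0.342, that of Eif1ax.

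Since Eif1 and Eif1b are near copies, their reads can be compared only where their sequences differ. Over 342 aligned coding bases they differed at 64, an identity of 81.3%, and their transcripts shared no run longer than 25 bases. The windows below let a reader see how often a read crosses a difference where the copies are most alike. Of all ungapped 90-base coding stretches within a single exon, they hold the most identical bases. They are the same 90 coding bases of each gene in GENCODE M21 on GRCm38, the build also called mm10, and capitals mark the 16 bases that differ. Eif1 is from exon 3 at chr11:100320948-100321037 on the plus strand, and Eif1b from exon 3 at chr9:120494535-120494624 on the plus strand.
Eif1: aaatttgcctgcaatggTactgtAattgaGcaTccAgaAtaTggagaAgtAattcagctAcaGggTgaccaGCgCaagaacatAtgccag
Eif1b: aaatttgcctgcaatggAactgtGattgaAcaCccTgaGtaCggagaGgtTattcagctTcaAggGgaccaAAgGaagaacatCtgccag
The ratio of Eif1 to Eif1b FPKM was 2.09, 2.12 and 2.38 in control and 2.33, 2.13 and 2.01 in EFV. Both groups covered nearly the same range.

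The 5 subunits of eIF2B, the exchange factor that recharges eIF2 with GTP, lay within 1.78-fold of each other on average. Eif2b3, of the catalytic gamma-epsilon pair, was the steadiest, with 13.6, 13.8 and 13.8 FPKM in control and 13.6, 13.6 and 13.7 FPKM in EFV. Its coefficient of variation was 0.611%. Eif2b5, the catalytic epsilon subunit, had 20.5, 18.5 and 18.5 FPKM in control and 19.0, 20.4 and 19.2 FPKM in EFV, and the groups overlapped. Eif2b4 of the delta subunit had 19.96, 18.6 and 20.2 FPKM in control and 19.2, 19.2 and 20.3 FPKM in EFV. Eif2b2, the beta subunit, had 18.7, 17.5 and 17.2 FPKM in control and 19.0, 18.5 and 18.5 FPKM in EFV, where control replicate 1 reached into the EFV range. Eif2b1, the alpha subunit, had 10.7, 10.4 and 11.0 FPKM in control and 11.6, 10.3 and 12.2 FPKM in EFV. Its log2 fold change of 0.075 was the largest of the 5, with an interval from -0.091 to 0.24. All 5 intervals lay within 0.26 on the log2 scale either way.

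Each of the 4 kinases that phosphorylate eIF2 alpha answers a different stress. Eif2ak1, the kinase regulated by heme, had 12.8, 12.7 and 13.0 FPKM in control and 12.4, 13.0 and 10.9 FPKM in EFV. EFV replicate 3 was the low library and EFV replicate 2 the highest of all. The log2 fold change was -0.098, with an interval from -0.26 to 0.068 and an unadjusted edgeR p of 0.213, and without EFV replicate 3 it was -0.026. Eif2ak3, or PERK, the kinase of endoplasmic reticulum stress, had 10.7, 10.5 and 9.63 FPKM in control and 10.1, 10.4 and 10.4 FPKM in EFV. Its log2 fold change was -0.010, with an interval from -0.13 to 0.12. Eif2ak4, or GCN2, the kinase that senses uncharged tRNA, had 6.21, 6.46 and 6.24 FPKM in control and 5.90, 6.39 and 6.49 FPKM in EFV, with overlapping groups. Eif2ak2, or PKR, the kinase activated by double-stranded RNA, was scarce, with 0.81, 0.94 and 0.92 FPKM in control and 1.01, 1.03 and 0.90 FPKM in EFV. At 86 to 108 counts per library its interval ran from -0.21 to 0.47, so a rise of up to 38.2% and a fall of up to 13.5% were not distinguished at this depth.

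The scaffold complex eIF3, which bridges the small subunit and eIF4F, was represented by 14 genes, of which 8 were lower and 6 higher. Eif3h had the smallest unadjusted p of all members, 0.141 by edgeR. It had 124, 118 and 116 FPKM in control and 117, 112 and 116 FPKM in EFV. The log2 fold change was -0.067, with an interval from -0.16 to 0.027, and in FPKM a pair of EFV libraries lay above the lowest control. On TMM-scaled CPM all EFV libraries were below all control libraries, and the exact two-sided permutation p was 0.10, the smallest that 3 against 3 can give. Eif3f, a subunit of the same module, had 117, 110 and 121 FPKM in control and 119, 115 and 119 FPKM in EFV, with a log2 fold change that rounded to 0 and an interval from -0.10 to 0.10. Eif3g, an RNA-binding subunit, had 69.1, 65.8 and 66.3 FPKM in control and 68.6, 69.8 and 69.8 FPKM in EFV.

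Eif3i had 47.9, 43.9 and 46.9 FPKM in control and 44.7, 45.9 and 49.2 FPKM in EFV. The groups covered nearly the same range, and the interval of the log2 fold change was -0.13 to 0.11. Eif3m had 32.2, 29.6 and 34.3 FPKM in control and 34.2, 33.3 and 30.6 FPKM in EFV, with an interval from -0.15 to 0.17. Eif3c, a core subunit, had 63.7, 61.1 and 59.0 FPKM in control and lay between 59.6 and 59.8 FPKM in EFV. The EFV values were thus inside the control range, and the log2 fold change was -0.055 with an unadjusted edgeR p of 0.248. Eif3d, the subunit able to bind the cap of some mRNAs, had 45.8, 44.4 and 45.0 FPKM in control and 42.4, 42.6 and 46.9 FPKM in EFV. Its log2 fold change was -0.052. Without EFV replicate 3, the highest library, it was -0.095 with an unadjusted edgeR p of 0.0469 and an adjusted p of 0.998. Eif3c and Eif3d were singled out after their values were seen. Without the j subunit, the mean level of the 12 subunit genes ranged from 20.9 FPKM for Eif3a to 117 FPKM for Eif3h, although the subunits share 1 complex. Across these 12 genes Spearman's rho between transcript length and FPKM was -0.62, a description over genes of the same libraries in a unit that is itself divided by length.

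Eif3j1 and Eif3j2 encode the j subunit, which is loosely bound and occupies the mRNA channel of the ribosome. Their coding sequences were identical at all 786 aligned bases, with total lengths of 786 and 792, and the transcripts shared a run of 1107 bases. Within that run a read cannot be assigned to either gene by its sequence. Eif3j2 had 1.2, 0.11 and 3.78 FPKM in control and 0.72, 1.16 and 3.91 FPKM in EFV, from 6 to 223 expected counts, and so varied more within each group than any other tested member. Its log2 fold change was 0.16 with an interval from -1.83 to 2.16. Leaving out 1 library moved it to 1.53 without control replicate 3 and to -0.85 without EFV replicate 3. Eif3j1 had 16.3, 16.5 and 12.8 FPKM in control and 16.9, 16.3 and 13.6 FPKM in EFV, lowest in the same 2 libraries in which Eif3j2 was highest. The sum of the 2 genes was 17.5, 16.6 and 16.5 FPKM in control and 17.6, 17.5 and 17.5 FPKM in EFV, with a coefficient of variation of 2.83%. With the counts summed, the log2 fold change was 0.038 with an interval from -0.079 to 0.15, so that the sum was resolved and its division between the copies was not.

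**Figure D4:**
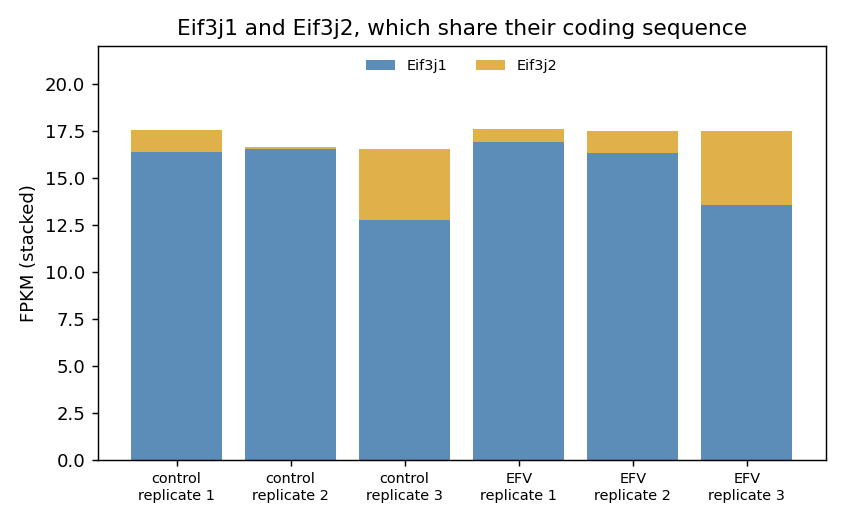
FPKM of Eif3j1 (blue) and Eif3j2 (yellow) stacked for each of the 3 control and 3 EFV libraries. The height of the stack stays between 16.5 and 17.6 FPKM, while the Eif3j2 portion runs from 0.11 to 3.91 FPKM.

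Of the 11 tested genes of eIF4F, its helpers and their homologs, such as Eif4a3 and Eif4e2, 4 were lower and 7 higher. Every interval lay within 0.26 on the log2 scale either way. Eif4g2, which encodes a scaffold without the eIF4E-binding site of eIF4G, was the most abundant, with 144, 148 and 149 FPKM in control and 156, 152 and 140 FPKM in EFV. The EFV libraries lay on both sides of the control range, and the log2 fold change was 0.0040 with an interval from -0.11 to 0.12. The full scaffolds were lower and nearly equal, with 34.4 to 35.9 FPKM for Eif4g1 and 35.5 to 39.99 FPKM for Eif4g3. Eif4g2 exceeded Eif4g1 by 4.06- to 4.54-fold in every library. Eif4b and Eif4h, cofactors of the helicase, lay at 58.2 to 67.3 and 93.6 to 100 FPKM.

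The helicase eIF4A is encoded by a pair of genes of similar level in this tissue. Eif4a2 had 127, 124 and 120 FPKM in control and 123, 123 and 128 FPKM in EFV. Eif4a1 had 113, 102 and 107 FPKM in control and 108, 105 and 110 FPKM in EFV. The ratio of Eif4a2 to Eif4a1 was 1.13, 1.22 and 1.12 in control and 1.15, 1.17 and 1.16 in EFV, so the EFV values lay inside the control range. The copies were 78.6% identical over 1216 aligned coding bases and shared no transcript run over 20 bases. The windows are again the 90 aligned coding bases within a single exon where the copies are most alike, and capitals mark the 12 differences. This stretch encodes the Asp-Glu-Ala-Asp motif for which the DEAD-box helicases are named (gaTgaagcagat in Eif4a1 and gaCgaagcagat in Eif4a2). Eif4a1 is from exon 6 at chr11:69668664-69668753 on the minus strand, and Eif4a2 from exon 6 at chr16:23110234-23110323 on the plus strand.
Eif4a1: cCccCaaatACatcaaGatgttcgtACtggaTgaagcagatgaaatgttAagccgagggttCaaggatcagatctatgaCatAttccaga
Eif4a2: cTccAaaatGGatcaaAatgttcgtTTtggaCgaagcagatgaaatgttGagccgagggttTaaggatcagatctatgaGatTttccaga

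Among the cap-binding proteins, Eif4e, the main form, had 20.42, 19.96 and 19.56 FPKM in control and 19.92, 19.75 and 19.82 FPKM in EFV. Its coefficient of variation was 1.45%. Eif4e2, which encodes a homolog that represses the mRNAs it binds, had 10.8, 10.3 and 10.9 FPKM in control and 11.1, 11.0 and 11.2 FPKM in EFV. All EFV libraries were higher than all control libraries, and the difference was small. By the edgeR fit the log2 fold change was 0.033 with an interval from -0.083 to 0.15 and an unadjusted p of 0.535. By the exact two-sided permutation test over libraries, p was 0.10. Eif4e3, a further homolog, had 5.01 to 5.94 FPKM.

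The genes of the eIF4E inhibitors had lower levels than Eif4e in every library. Eif4ebp2, the 4E-binding protein prevalent in neural tissue, had 14.3, 15.8 and 15.2 FPKM in control and 13.8, 16.5 and 12.2 FPKM in EFV. EFV replicate 2 was the highest library of all and EFV replicate 3 the lowest. The log2 fold change was -0.11, with an interval from -0.36 to 0.14. Without EFV replicate 2 it was -0.24 with an unadjusted edgeR p of 0.022 and an adjusted p of 0.998. Without EFV replicate 3 it was -0.0070. The ratio of Eif4ebp2 to Eif4e was 0.70, 0.79 and 0.78 in control and 0.69, 0.84 and 0.62 in EFV. Eif4ebp1 had 2.11, 1.66 and 2.05 FPKM in control and 1.77, 2.41 and 1.53 FPKM in EFV, and Eif4ebp3 had 0.54 to 1.09 FPKM from 14 to 29 counts. The intervals of these scarce genes were wide, from -0.59 to 0.50 and from -0.80 to 0.82 on the log2 scale. Eif4enif1, which carries eIF4E into the nucleus, had 15.5 to 17.1 FPKM.

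Eif5a encodes the factor that frees stalled ribosomes and is the protein carrying hypusine, a modified lysine. It had 171, 170 and 170 FPKM in control and 164, 171 and 169 FPKM in EFV, with a log2 fold change of -0.043 and an interval from -0.14 to 0.059. Eif5a2, its second gene, had 5.82, 5.91 and 5.27 FPKM in control and 7.06, 5.93 and 5.69 FPKM in EFV. EFV replicate 1 was highest, and the other EFV libraries lay in or next to the control range. The log2 fold change was 0.12 with an interval from -0.085 to 0.32 and an unadjusted edgeR p of 0.219, and it was 0.022 without EFV replicate 1. Eif5a exceeded Eif5a2 by 23.2- to 32.2-fold. Eif6, which keeps free ribosomal subunits apart, had 25.7, 21.7 and 22.2 FPKM in control and 23.9, 22.5 and 24.0 FPKM in EFV.

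The copies of eIF5A were 73.2% identical over 462 aligned coding bases and shared no transcript run over 14 bases. The 90 bases shown are again the most alike within a single exon. They include the codon of the lysine that becomes hypusine, aag within actggCaagcatggC of Eif5a. Capitals mark the 15 differences, none of which is in that codon. Eif5a is from exon 3 at chr11:69919151-69919240 on the minus strand, and Eif5a2 from exon 2 at chr3:28782127-28782216 on the plus strand.
Eif5a: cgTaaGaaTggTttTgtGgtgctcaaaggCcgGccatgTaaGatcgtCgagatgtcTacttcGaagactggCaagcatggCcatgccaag
Eif5a2: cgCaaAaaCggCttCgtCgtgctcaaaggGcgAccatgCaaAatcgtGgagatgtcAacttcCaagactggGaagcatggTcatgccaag

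In all, 10 ratios between related members were compared, and the exact two-sided permutation p of each lay between 0.30 and 1.0.

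Genes of the same pathway without an Eif symbol were counted in the same way. Of 32 initiation partners, such as RACK1, the poly(A)-binding proteins and the kinases mTOR and MNK, 15 were higher and 17 lower, and 1 passed the limits of the study against 3.01% of all genes. Rack1, a ribosomal scaffold protein, had 165, 146 and 160 FPKM in control and 160, 154 and 162 FPKM in EFV. Pabpc1, the main poly(A)-binding protein, had 93.5, 97.8 and 93.7 FPKM in control and 102, 91.2 and 89.2 FPKM in EFV. The gene that passed was Pabpc4, another poly(A)-binding protein, with 14.3, 15.9 and 15.6 FPKM in control and 13.9, 13.5 and 14.3 FPKM in EFV. The groups did not overlap, the log2 fold change was -0.15 (SE 0.055) and the unadjusted edgeR p was 0.0221, with an adjusted p of 0.999.

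Of 13 elongation and termination factors, 7 were higher and 6 lower, and none passed the limits. Eef1a1, which delivers aminoacyl-tRNA, had 1066, 1014 and 1047 FPKM in control and 1037, 1002 and 1019 FPKM in EFV. Eef2, the translocase, had 467 to 498 FPKM over all 6 libraries.

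Phosphorylated eIF2 alpha raises translation of ATF4, a transcription factor. Of 20 genes in the list of Atf4 and its targets, 19 were measured and tested, of which 13 were lower and 6 higher. Their log2 fold changes had a median of -0.064, beside 0.0012 over all genes tested. The FPKM of the list summed to 439 to 517 in control and 452 to 473 in EFV, so the groups overlapped. Control replicate 3 had the highest sum. Atf4 had 134, 138 and 165 FPKM in control and 163, 136 and 134 FPKM in EFV, and 1 library of each group was high. Vegfa, a growth factor for blood vessels, had 60.1, 62.1 and 57.3 FPKM in control and 53.0, 54.4 and 62.7 FPKM in EFV. Of the 19, 1 passed the limits, against 3.01% of all genes. This was Gdf15, a stress-induced cytokine, with 15, 24 and 14 counts in control and 8, 8 and 7 in EFV. Gdf15 met the filter for testing, 10 counts in 3 or more libraries, through the control libraries alone. Its entry to the test therefore depended on the control counts being the higher ones. Its log2 fold change was -1.22 (SE 0.37), with an unadjusted edgeR p of 0.00931 and an adjusted p of 0.999.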

How the data were processed

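Poly(A) RNA libraries were sequenced by the provider, and per the labels the reads were processed with HISAT2 2.0.4, Bowtie2 2.2.5 and RSEM 1.2.12 on mm10. The authors deposited, per gene and library, RSEM expected counts and FPKM, which is normalised for length and depth. RSEM divides reads shared by near-identical genes among them by estimate. A gene absent from a library's file was set to 0.

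Expected counts were rounded and fitted with edgeR 4.0.16 in R 4.3.3 (TMM scaling, quasi-likelihood, two-sided test, group as the single term, Benjamini-Hochberg over the 15537 genes that reached 10 counts in 3 or more of the 6 libraries). Intervals (95%) come from that fit. The limits of the study were an unadjusted p of 0.05 and a 7% difference, there with a Poisson model. The Poisson fit here was not the study's own test. It called more genes than the study lists as changed, and that list holds no initiation factor gene. Alternatives were other scalings and filters, DESeq2 1.42.0, limma 3.58.1 on log2(FPKM + a pseudocount of 0.1 or 1), the Poisson model, a replicate block, each library left out and the counts of near copies summed. The code was tested on simulated data. Replicates were compared by chi-square of their counts, and none was a repeat of another. RefSeq coordinates matched 53 of 53 members by gene ID.

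Members were named if they passed the limits, had FPKM that did not overlap between groups, or were among the 3 most abundant of a role. Also named were members with a named near copy, the eIF2 alpha kinases, the eIF2B subunits, and Eif3i, Eif3m and Eif4g2. Some members outside these rules were named too, among them Eif3a, Eif3c, Eif3d, Eif4b, Eif4e, Eif4e3 and Eif4h. The study's proteomics lists the proteins of Eif3i, Eif3m and Eif4g2, and some initiation partners such as RACK1, as differentially expressed after EFV. From each other pathway list, the genes past the limits and the 2 most abundant were named. The members and lists were chosen with earlier results of these data known.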

Additional observations from a re-analysis of the deposited data

How the results depend on the processing

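With 3 pools per group the widest limits were those of the scarce members and of Eif3j2. Over all genes, the count at an adjusted p of 0.05 was 0 by edgeR and limma, 11 by DESeq2 and 2042 by the Poisson model, and 0 to 1 with 1 library left out (1 without EFV replicate 1). The 467 genes past the limits of the study became 269 by DESeq2 and 2305 by the Poisson model, and 388 to 576 with 1 library left out. Among the members, the Poisson model placed 3 past those limits (Eif4ebp2, Eif2ak1 and Eif5a2) and 4 at an adjusted p of 0.05 (Eif5a2, Eif3c, Eif3h and Eif4b). With 1 library left out, 0 to 2 members passed the limits, the 2 being Eif4ebp2 and Eif1ax without EFV replicate 2. Total count scaling moved the members lower in EFV from 26 to 17, and limma on log2 FPKM moved them to 18. Of the 52 members, 23 kept their sign under all 16 alternatives and 29 changed it under at least 1.

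The replicate numbers of the labels were not taken to pair the pools, since the sample titles give a number and state no pairing. Deviations of same-numbered libraries correlated at 0.12, 0.073 and 0.10, and each control library correlated best with its own number. With the number as a replicate block, 514 genes and 0 members passed the limits of the study, and the median log2 fold change of the members was -0.0008.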
